A study of Mus musculus with 3 samples.

Results

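The mitochondrial ribosomal protein genes are the 75 genes of the table whose symbols begin with Mrpl or Mrps followed by a digit, of 18890 genes in all. By symbol, 46 belong to the large subunit (Mrpl) and 29 to the small subunit (Mrps). Accessible chromatin was profiled by ATAC-seq, which tags open DNA with a transposase, in organoids grown from primary basal epithelial cells of wild-type mouse prostate. One library each was made from organoids cultured for 7 days with 10 µM UK5099, with 20 mM sodium lactate or with vehicle. UK5099 inhibits the mitochondrial pyruvate carrier, which moves pyruvate into the mitochondrion, and lactate is made from pyruvate in the cytosol. With 1 library per treatment there was no replicate, no test was possible and every difference describes these 3 libraries only. Per the methods, primary basal cells came from male C57BL/6J mice a few months old.

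The mitochondrial ribosome translates the few proteins encoded by mitochondrial DNA, which are core subunits of the respiratory chain and of ATP synthase. All of its own proteins are encoded in the nucleus, made in the cytosol and imported. The small subunit reads the messenger RNA, and the large subunit joins the amino acids and holds the exit tunnel of the new chain. Some members have a counterpart in the bacterial ribosome and others are found in mitochondria only. Of the members, 28 large and 16 small subunit genes encode proteins with a bacterial counterpart. Symbols do not always match the place of the protein: Mrps30 and Mrps18a proteins are found in the large subunit, and Mrps36 is a component of the alpha-ketoglutarate dehydrogenase complex and not of the mitochondrial ribosome.

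The value of a gene was its average peak height, which is the stacked read coverage at the highest point of each accessible region assigned to the gene, averaged over its regions and scaled per library by the authors. All 75 members had a called peak in all 3 libraries, which held for 90.2% of all genes. The median height of the large subunit genes was 70.0 in UK5099, 76.6 in lactate and 62.7 in vehicle. The median height of the small subunit genes was 67.0 in UK5099, 67.8 in lactate and 59.0 in vehicle, and the median over all genes was 58.7, 60.3 and 51.3 in the same order of libraries. Both subunits thus had medians above that of all genes in each library. Among genes with a single region, at the gene start, the order was the other way: 25 members had medians of 70.0 in UK5099, 67.8 in lactate and 61.5 in vehicle, against 85.0, 86.2 and 74.1 for all such genes. All 82 cytosolic ribosomal protein genes had medians of 82.3 in UK5099, 85.7 in lactate and 69.4 in vehicle, against 70.0, 72.1 and 61.2 for all 75 members. If the authors' scaling equalised depth, lactate had 2.12 times and vehicle 1.74 times the depth of UK5099. Behind the heights of a large subunit gene stood a median of 157 stacked reads in UK5099, 345.5 in lactate and 229 in vehicle, and behind those of a small subunit gene 136, 304 and 219. The 5 basal markers looked up for these cells (Krt5, Krt14, Trp63, Col17a1 and Itga6) had called peaks and were 1.22-fold to 1.69-fold of vehicle in UK5099 and 1.24-fold to 1.45-fold in lactate. The 5 luminal markers were 0.376-fold (Krt18) to 1.22-fold (Hoxb13) in UK5099 and 0.590-fold (Prom1) to 1.20-fold (Cd24a) in lactate. Beside these, the median over all genes was itself 1.15-fold of vehicle in UK5099 and 1.18-fold in lactate. None of these markers, nor of 4 stromal, 2 immune and 2 endothelial markers found among the genes, was at 0 in any library. That says little, because only 1 of all 18890 genes was at 0 in UK5099 and none in lactate or vehicle. The immune marker Cd3e and the endothelial marker Cdh5 were looked up too and are not among these genes. Accessible DNA at a marker does not show that its gene is expressed. The part of cell type shares in the ratios of the members was not tested, and a change in the share of a cell type cannot be told apart from a change per cell.

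**Figure D1:**
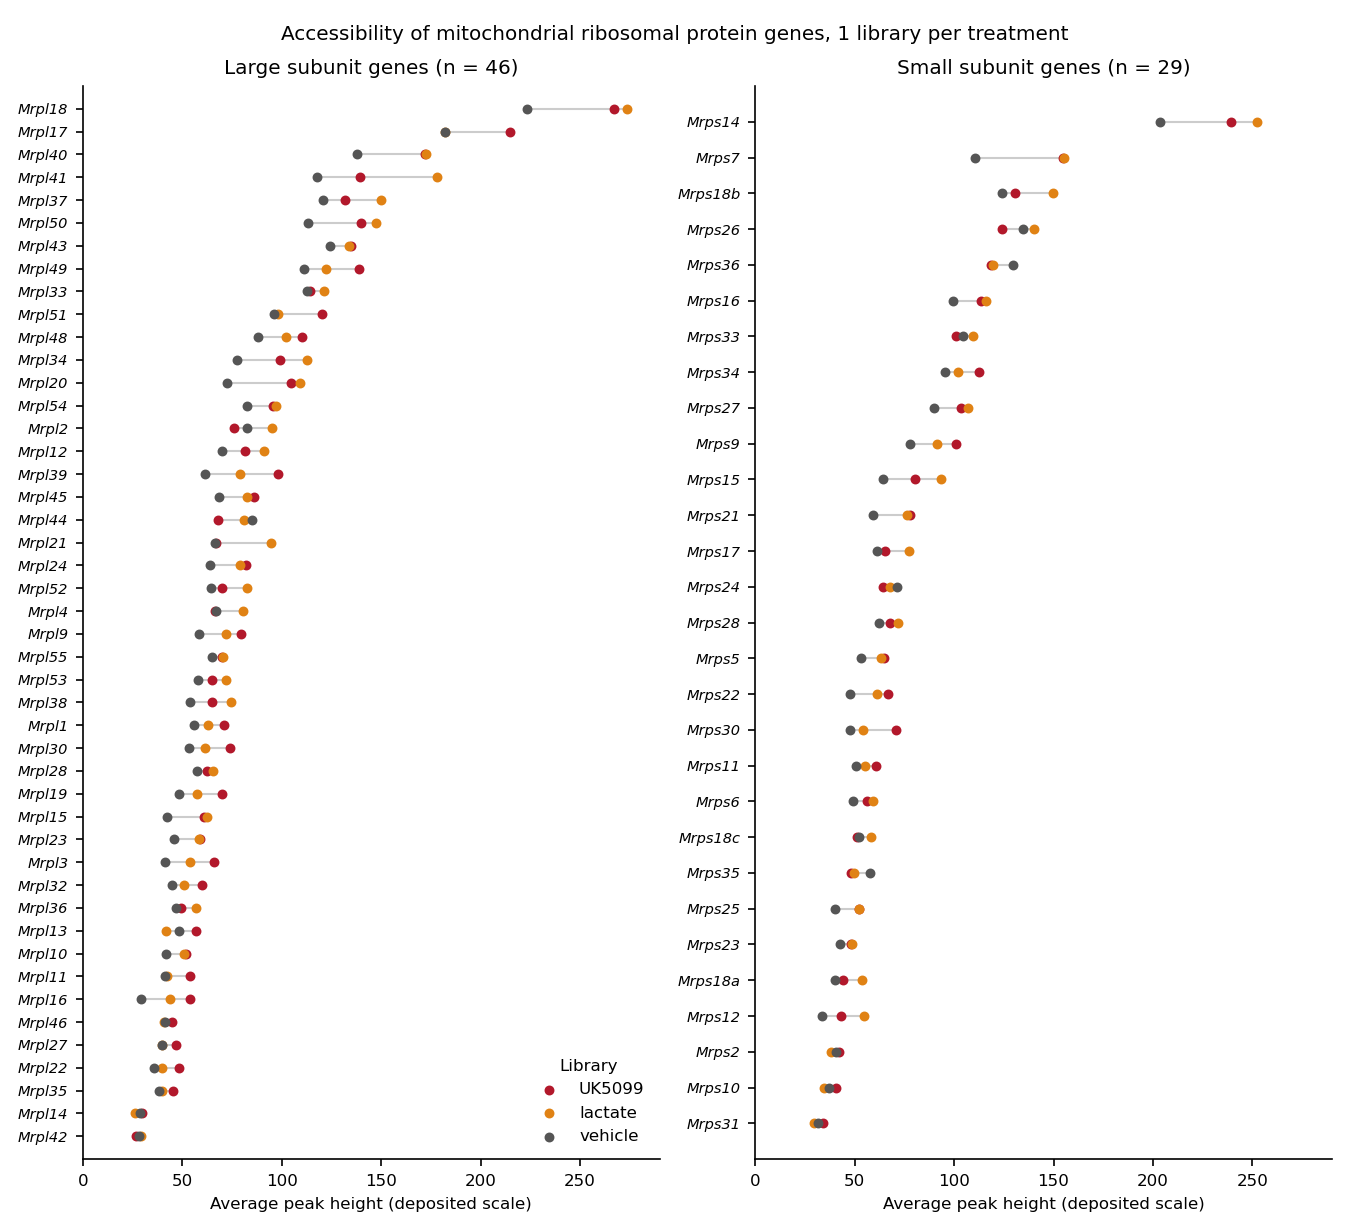
Average peak height (x axis, on the scale of the deposited values) of each large subunit gene (left, 46 genes) and small subunit gene (right, 29 genes), ordered by mean height, with 1 point per library and a grey line over their range. Mrpl18 lies between 224 and 274 and Mrps14 between 203 and 253, while Mrpl42, Mrpl14 and Mrps31 stay under 35 in each library.

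Levels differed far more between members than between libraries. Mrpl18, whose bacterial counterpart binds 5S ribosomal RNA, had the highest height of the large subunit, at 267 in UK5099, 274 in lactate and 224 in vehicle. Mrpl17 followed with 215 in UK5099, 182 in lactate and 182 in vehicle. Mrps14, a protein of the small subunit head, led the small subunit with 239 in UK5099, 253 in lactate and 203 in vehicle. In Mrpl18 and Mrps14 the vehicle library was the lowest, and in Mrpl17 lactate and vehicle were level. The lowest large subunit gene, Mrpl42, was at 26.7 in UK5099, 29.2 in lactate and 28.4 in vehicle, and Mrpl14 was at 29.8, 26.1 and 28.7. Mrps31 was the lowest small subunit gene, at 34.2 in UK5099, 29.8 in lactate and 31.5 in vehicle, followed by Mrps10 at 40.7, 34.4 and 37.0. In height the 3 libraries lay closer together in the weakest members than in the strongest, but a given ratio is a smaller difference at a low height. These members were picked by their height, so the distance between the weakest and the strongest follows from the choice. Large subunit genes found only in mitochondria had a median of 96.8 in UK5099, 89.9 in lactate and 83.9 in vehicle, against 66.2, 61.7 and 50.9 for large subunit genes with a bacterial counterpart. The plot of heights by library shows each member.

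Most members had an accessible region at the gene start, though many of their peaks lay elsewhere. In 71 of the 75 members (94.7%) a peak was called within 1 kb of the gene start in all 3 libraries, against 60.8% of all genes. The share was 90.2% of cytosolic ribosomal protein genes and 87.6% of respiratory chain and ATP synthase genes. A single accessible region was assigned to 27 members (36.0%, against 27.2% of all genes), and in 25 members (33.3%, against 12.8%) this region was at the gene start in each library. Such a single start region was found for 25.6% and 29.2% of those lists, in the same order. The genes with the most regions were Mrpl38 with 5 in the large subunit, and Mrps6 with 7 and Mrps27 with 6 in the small subunit. Among the members with 4 regions was Mrpl1, whose bacterial counterpart forms the stalk through which transfer RNA leaves. In the 89 peaks called for large subunit genes in UK5099, 43 were within 1 kb of the member's own start and 24 more were within 1 kb of another gene's start. In lactate these were 46 and 28 of 107 peaks, and in vehicle 44 and 24 of 89. For the small subunit genes they were 28 and 12 of 58 peaks in UK5099, 29 and 12 of 62 in lactate and 28 and 12 of 57 in vehicle. A height averaged over several regions thus often includes the start of a neighbouring gene.

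Of the 75 members 4 had no peak within 1 kb of their own start in any library. The single region of Mrpl3, whose bacterial counterpart reaches toward the peptidyl transferase centre, was 23916 bp from the gene start, in an exon of Mrpl3. The single region of Mrps12, the decoding centre protein, was 8789 to 8853 bp from its start, in an intron of Fbxo17 and 428 to 492 bp from a Fbxo17 start. The 3 regions of Mrpl49 were near the starts of Syvn1, Znhit2 and Tm7sf2 or Vps51. Those of Mrpl53 were near the starts of Ccdc142 and Mogs and, in UK5099 and lactate, 1264 to 1296 bp from an Mrpl53 start. For these genes the ratios below describe DNA away from the promoter.

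Many members start close to a neighbour. A gene on the opposite strand started within 1 kb for 26 members (34.7%, against 15.4% of all genes). The share was 15.9% of cytosolic ribosomal protein genes and 31.5% of respiratory chain and ATP synthase genes. Such pairs are called head to head here, whether or not the genes overlap, as Mrpl48 and Rab6a do, or share a promoter. Mrpl46 and Mrps11, 1 gene of each subunit, start 42 bp apart on chromosome 7. Mrpl43 starts 116 bp from Peo1, which encodes the mitochondrial DNA helicase Twinkle, and Mrps12 starts 187 bp from Sars2, the mitochondrial seryl-tRNA synthetase. Values in all 3 libraries were the same as those of another gene for 15.7% of all genes. The share was 43.9% of cytosolic ribosomal protein genes and 25.8% of respiratory chain and ATP synthase genes. Among the members it was 28.0%, or 21 genes, whose values cannot be assigned to 1 gene. In the large subunit these were Mrpl10, Mrpl12, Mrpl14, Mrpl16, Mrpl18, Mrpl21, Mrpl27, Mrpl28, Mrpl34, Mrpl41, Mrpl43, Mrpl50, Mrpl51, Mrpl53 and Mrpl54. In the small subunit they were Mrps7, Mrps12, Mrps18b, Mrps18c, Mrps26 and Mrps34. The partners include Tcp1, a subunit of the cytosolic chaperonin, for Mrpl18, and Gif, which encodes gastric intrinsic factor, for Mrpl16.

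Promoter sequences were taken from RefSeq on GRCm38.p6, the assembly that mm10 names, as 250 bases before to 50 bases after a gene's start. Of the 75 members 66 matched by gene identifier, and the table starts of 62 of these lay within 100 bp of the RefSeq start. The windows were searched on both strands for motifs of factors known to bind promoters of nuclear genes for mitochondrial proteins. NRF1 was searched as GCGCA, any base, then GCGC, with overlapping matches counted, ETS factors as CCGGAAGT, YY1 as AAGATGGCG, the cyclic AMP response element (CRE) as TGACGTCA and SP1 as GGGCGG. The windows printed are examples of members with extreme ratios or heights (Mrpl16, Mrpl39, Mrpl44, Mrpl18 and Mrps30), of members with several matches (Mrpl45, Mrps26 and Mrps27) and of a gene that starts head to head with a member of the other subunit (Mrps11, beside Mrpl46). Capitals mark NRF1, ETS, YY1 and CRE matches, and SP1 matches are left in lower case.
Mrpl16 (chr19:11770165-11770464, plus strand): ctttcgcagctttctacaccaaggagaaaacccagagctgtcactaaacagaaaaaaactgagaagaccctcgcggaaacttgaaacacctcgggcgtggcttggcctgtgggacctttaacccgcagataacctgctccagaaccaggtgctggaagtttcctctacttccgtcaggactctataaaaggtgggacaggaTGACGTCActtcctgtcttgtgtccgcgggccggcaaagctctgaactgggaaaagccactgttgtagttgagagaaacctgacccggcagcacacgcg
Mrpl39 (chr16:84735195-84735494, minus strand): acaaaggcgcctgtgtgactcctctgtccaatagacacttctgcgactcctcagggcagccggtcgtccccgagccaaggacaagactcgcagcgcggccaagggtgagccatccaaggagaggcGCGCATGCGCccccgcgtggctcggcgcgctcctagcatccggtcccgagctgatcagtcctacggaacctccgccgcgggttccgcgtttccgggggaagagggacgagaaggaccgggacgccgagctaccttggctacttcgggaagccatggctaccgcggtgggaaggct
Mrpl44 (chr1:79775768-79776067, plus strand): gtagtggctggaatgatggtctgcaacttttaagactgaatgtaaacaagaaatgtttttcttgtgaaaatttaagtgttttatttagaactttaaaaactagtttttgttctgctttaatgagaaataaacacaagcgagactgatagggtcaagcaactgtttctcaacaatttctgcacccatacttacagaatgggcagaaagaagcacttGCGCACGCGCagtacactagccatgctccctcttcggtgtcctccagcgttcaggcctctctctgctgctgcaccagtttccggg
Mrpl45 (chr11:97315466-97315765, plus strand): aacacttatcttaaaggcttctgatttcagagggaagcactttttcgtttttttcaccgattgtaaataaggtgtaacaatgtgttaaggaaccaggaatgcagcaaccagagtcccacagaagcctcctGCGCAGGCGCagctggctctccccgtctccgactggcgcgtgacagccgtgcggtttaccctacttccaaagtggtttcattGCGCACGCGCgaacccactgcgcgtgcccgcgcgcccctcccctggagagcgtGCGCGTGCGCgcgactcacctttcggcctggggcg
Mrpl18 (chr17:12916042-12916341, minus strand): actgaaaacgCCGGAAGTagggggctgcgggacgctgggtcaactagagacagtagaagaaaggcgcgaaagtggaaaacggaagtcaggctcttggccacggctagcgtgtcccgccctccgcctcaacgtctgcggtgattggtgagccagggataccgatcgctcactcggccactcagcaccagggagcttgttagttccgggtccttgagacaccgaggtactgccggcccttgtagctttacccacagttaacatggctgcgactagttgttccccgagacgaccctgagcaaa
Mrps26 (chr2:130563507-130563806, plus strand): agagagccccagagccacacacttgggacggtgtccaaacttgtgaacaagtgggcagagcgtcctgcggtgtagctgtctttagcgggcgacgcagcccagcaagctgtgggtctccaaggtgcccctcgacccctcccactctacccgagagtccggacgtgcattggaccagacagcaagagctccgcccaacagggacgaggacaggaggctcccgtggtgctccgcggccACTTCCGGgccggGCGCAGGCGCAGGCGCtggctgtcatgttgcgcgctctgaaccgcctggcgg
Mrps27 (chr13:99344536-99344835, plus strand): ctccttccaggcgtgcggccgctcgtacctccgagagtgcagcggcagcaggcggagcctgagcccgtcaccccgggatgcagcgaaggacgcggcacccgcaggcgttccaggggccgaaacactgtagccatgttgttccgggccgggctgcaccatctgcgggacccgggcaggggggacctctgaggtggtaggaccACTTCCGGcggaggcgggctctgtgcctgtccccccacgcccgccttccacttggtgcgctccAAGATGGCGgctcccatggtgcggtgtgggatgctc
Mrps11 (chr7:78782881-78783180, plus strand): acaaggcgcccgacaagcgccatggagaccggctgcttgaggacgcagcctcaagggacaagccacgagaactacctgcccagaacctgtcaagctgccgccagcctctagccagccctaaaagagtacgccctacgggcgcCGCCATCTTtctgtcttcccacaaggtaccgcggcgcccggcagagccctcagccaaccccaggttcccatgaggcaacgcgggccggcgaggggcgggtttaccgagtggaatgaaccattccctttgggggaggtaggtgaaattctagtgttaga
Mrps30 (chr13:118387203-118387502, minus strand): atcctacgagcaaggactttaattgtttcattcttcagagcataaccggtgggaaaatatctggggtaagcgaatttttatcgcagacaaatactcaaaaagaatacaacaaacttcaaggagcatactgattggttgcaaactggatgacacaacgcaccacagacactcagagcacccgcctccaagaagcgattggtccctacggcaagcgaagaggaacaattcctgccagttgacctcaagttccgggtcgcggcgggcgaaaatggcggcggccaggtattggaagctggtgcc

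The windows of Mrpl39, Mrpl44 and Mrpl45 hold NRF1 matches, 1 in Mrpl39, 1 in Mrpl44 and 3 in Mrpl45, whose protein helps to tether the ribosome to the inner membrane. Mrps26 holds 1 ETS match and 2 overlapping NRF1 matches, Mrps27 holds 1 ETS and 1 YY1 match, Mrpl18 holds 1 ETS match and Mrps11 holds 1 YY1 match. The ETS matches of Mrps26 and Mrps27, the YY1 match of Mrps11 and 1 NRF1 match of Mrpl45 are on the opposite strand. The window of Mrpl16 holds a CRE match, and that of Mrps30 holds none of these 4 motifs. Over the 66 members 18.2% held an NRF1 match, against 8.41% of the 13885 promoters of genes in the table and 4.78% of all 27025 promoters. ETS matches were in 16.7% of members, against 6.65% and 4%, and YY1 matches in 12.1%, against 2.47% and 1.49%. CRE matches were in 3.03% of members, against 2.86% and 1.88%, and SP1 matches in 33 of the 66, against 57.0% and 35.9%. By subunit, NRF1 matches were in 22.5% of large and 11.5% of small subunit windows (9 and 3 genes), and SP1 matches in 40.0% and 65.4%. At least 1 of NRF1, ETS or YY1 was found in 20 of the 40 large and 9 of the 26 small subunit windows, against 16.4% of promoters of genes in the table. For respiratory chain and ATP synthase genes (75 windows) NRF1 was in 24%, ETS in 6.67% and YY1 in 9.33%. For cytosolic ribosomal protein genes (61 windows) ETS was in 19.7%, YY1 in 6.56%, and NRF1 was less frequent than among genes in the table. At least 1 of NRF1, ETS or YY1 was found in 37.3% and 31.1% of these lists, against 43.9% of members. An excess of NRF1, ETS or YY1 matches over genes in the table was thus not particular to the members, and that of YY1 was found in both lists. The windows of members were 58.2% G or C at the median, against 59.3% for genes in the table. A match describes the letters in the window only and does not show that a factor is bound there.

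**Figure D2:**
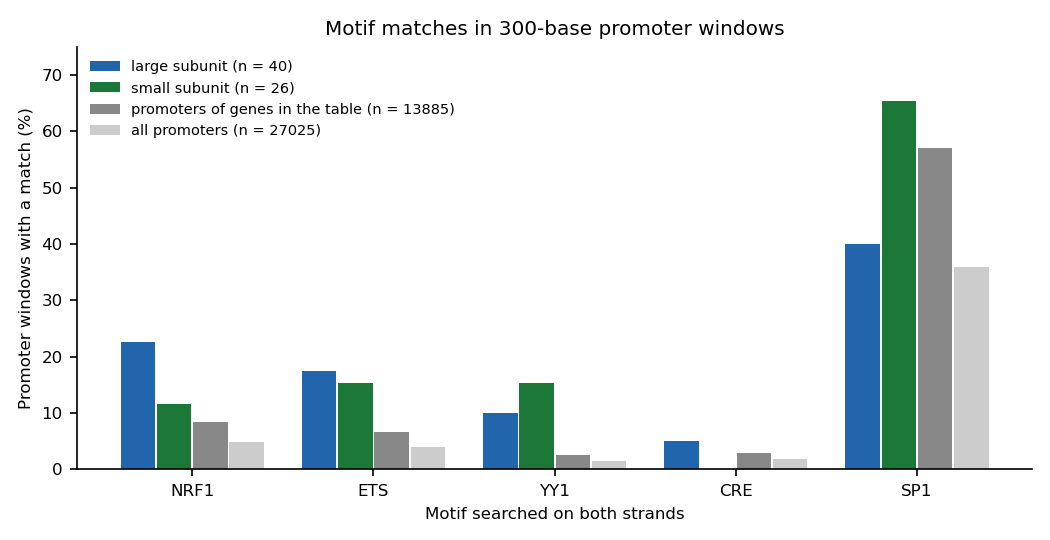
Percentage of 300-base promoter windows (y axis) with at least 1 match to each motif (x axis), for the large subunit genes, the small subunit genes, genes in the accessibility table and all RefSeq promoters. NRF1, ETS and YY1 matches are more frequent among the members than among genes in the table, and SP1 matches are at 40.0% in the large subunit, 65.4% in the small subunit and 57.0% among genes in the table.

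UK5099 against vehicle asks how blocking pyruvate import changes accessibility. At the members the ratio lay close to that of most genes. The median ratio was 1.20 for the large subunit and 1.14 for the small subunit, against 1.15 for all genes. Relative to the median gene these are 1.04 and 0.986, so the small subunit lay slightly under and the large subunit slightly over it. Ratios above 1 were found for 42 of 46 large and 23 of 29 small subunit genes, beside 75.7% of all genes, whereas 30 and 12 lay above the median gene. The study stated a ratio of 1.5 or more for more accessible genes and 0.5 or less for less accessible genes. Its counts of less accessible genes were higher than those at 0.5 or less here, 257 in UK5099 and 97 in lactate. The lower threshold as stated thus does not reproduce its calls. Of the large subunit genes 3 reached 1.5, and of the small subunit genes none did, beside 9.05% of all genes. No member was at 0.5 or less, beside 1.36% of all genes. The standard deviation of the log2 ratio was 0.22 over the large and 0.20 over the small subunit genes, against 0.41 over all genes. All genes include many of lower height, and the part of height in this difference was not tested. Among genes with a single region, at the gene start, it was 0.28 over 25 members and 0.31 over all 2425 such genes.

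The large subunit genes past the upper threshold were Mrpl16, Mrpl3 and Mrpl39. Ranges in parentheses after a ratio are 95% counting intervals, which do not cover variation between cultures. Mrpl16, on chromosome 19 at 11770415 to 11774956, had heights of 54.0 in UK5099, 43.8 in lactate and 29.3 in vehicle. The UK5099 library was the highest and vehicle the lowest, with a ratio of 1.84 (1.23 to 2.76) of UK5099 to vehicle, and its values are also those of Gif. Mrpl3 had 66.0 in UK5099, 53.7 in lactate and 41.4 in vehicle, with the same order of libraries and a ratio of 1.59 (1.12 to 2.26) in the region inside the gene. Mrpl39, a protein found only in mitochondrial ribosomes, had 98.0 in UK5099, 79.2 in lactate and 61.5 in vehicle at its start. Its ratio of UK5099 to vehicle was 1.59 (1.20 to 2.12). Each of the 3 genes had a single region and stood on 51 to 107 stacked reads in vehicle, and in Mrpl3 the interval included the median gene.

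Below the threshold, the next ratios in the large subunit were those of Mrpl19 at 1.45 (1.04 to 2.02), Mrpl20 at 1.44 (1.20 to 1.74) and Mrpl15 at 1.43 (just above 1 to 2.04). Mrps30 was highest in the small subunit, with heights of 71.0 in UK5099, 54.2 in lactate and 47.7 in vehicle and a ratio of 1.49 (1.07 to 2.07) of UK5099 to vehicle. Mrps22 had 67.0 in UK5099, 61.2 in lactate and 47.7 in vehicle, a ratio of 1.40 (1.0 to 1.96). Mrps7, a protein of the small subunit head, had 155 in UK5099, 155 in lactate and 111 in vehicle, a ratio of 1.40 (1.20 to 1.63). In Mrps7 both treated libraries were level and above vehicle, and its values are those of Gga3 and Mif4gd as well. Counting intervals lay wholly above the median gene for Mrpl16, Mrpl39 and Mrpl20 in the large subunit and for Mrps7 in the small subunit, beside 14.2% of all genes.

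At the other end, Mrpl44, which has a fold like that of ribonuclease III, was lowest of all members. Its heights were 68.0 in UK5099, 81.0 in lactate and 85.1 in vehicle, a ratio of 0.799 (0.591 to 1.07) of UK5099 to vehicle. The weakly accessible Mrpl42 was at 0.941. Mrpl2, a core RNA-binding protein of the large subunit, had 76.0 in UK5099, 95.2 in lactate and 82.8 in vehicle, a ratio of 0.918 (0.749 to 1.12). Mrpl4, whose bacterial counterpart lines the exit tunnel, had 66.5 in UK5099, 80.4 in lactate and 66.8 in vehicle, a ratio of 0.995 (0.853 to 1.16). Peaks of Mrpl4 were also called 15 and 815 bp from an Icam1 start in each library. Those of Mrpl2 were also called 159 to 191 bp from a Cul7 start. In the small subunit Mrps35 had 48.3 in UK5099, 49.5 in lactate and 57.7 in vehicle, a ratio of 0.838 (0.683 to 1.03). Vehicle was the highest library in Mrpl44 and Mrps35 and lay between the treated libraries in Mrpl2. Mrps24 was at 0.898 (0.654 to 1.22) with 64.0 in UK5099 and 71.3 in vehicle, and Mrps36 was at 0.914 (0.778 to 1.07) with 118.5 in UK5099 and 129.6 in vehicle. All of these intervals included 1. Intervals wholly below the median gene were those of Mrpl2, Mrpl44, Mrps26, Mrps35 and Mrps36, beside 14.2% of all genes.

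**Figure D3:**
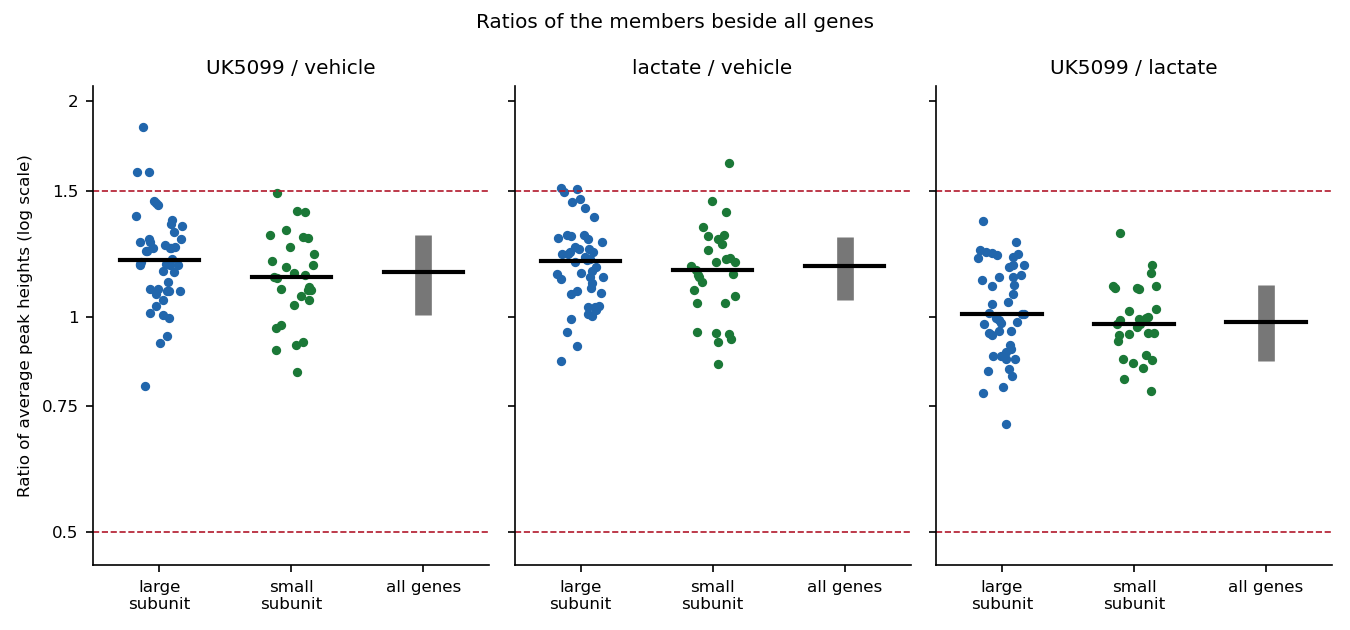
Ratio of average peak heights (y axis, log scale) in the 3 comparisons, with 1 point per large subunit gene (blue) and small subunit gene (green), black lines at medians and a grey bar over the middle 50% of all genes. The dashed lines are the thresholds of 1.5 and 0.5, and no member is at or under 0.5 in any panel.

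Lactate against vehicle asks whether added lactate changes accessibility. The median ratio was 1.20 for the large subunit and 1.16 for the small subunit, against 1.18 for all genes, which is 1.02 and 0.989 of the median gene. Ratios above 1 were again found for 42 of 46 large and 23 of 29 small subunit genes, beside 83.1% of all genes. A ratio of 1.5 or more was reached by 2 large and 1 small subunit genes, beside 6.07% of all genes, and 0.5 or less by none, beside 0.513%. The vehicle library is the same as in the first comparison, so its counting error enters both ratios of each gene.

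The small subunit gene past the threshold was Mrps12, with heights of 54.7 in lactate, 43.0 in UK5099 and 33.3 in vehicle. Its ratio of lactate to vehicle was 1.64 (1.19 to 2.29), in the region inside Fbxo17 that is also the value of Sars2. Mrpl41 had 178 in lactate, 139.5 in UK5099 and 118 in vehicle over 2 regions, a ratio of 1.51 (1.34 to 1.71), and shares its values with Wdr85. Mrpl20, whose bacterial counterpart is needed for large subunit assembly, had 109 in lactate, 104.5 in UK5099 and 72.4 in vehicle, a ratio of 1.51 (1.29 to 1.77). In Mrpl20 both treated libraries lay well above vehicle, whereas in Mrpl41 and Mrps12 UK5099 lay between lactate and vehicle. The height of Mrpl20 averages its start region and a region 73 bp from a Ccnl2 start. That of Mrpl41 averages its start region and a region with peaks 0 to 64 bp from a Dph7 start. Mrpl16 was just under the threshold at 1.49 (1.05 to 2.15), Mrps15 was at 1.45 (1.23 to 1.72) and Mrps7 at 1.40 (1.23 to 1.59). Intervals lay wholly above the median gene for Mrpl20, Mrpl34, Mrpl38, Mrpl41, Mrps7, Mrps12 and Mrps15, beside 12.2% of all genes.

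The lowest ratios of lactate to vehicle were those of Mrps35 and Mrpl13. Mrps35 was at 0.858 (0.730 to 1.01), and Mrpl13 had 41.9 in lactate, 57.0 in UK5099 and 48.3 in vehicle, a ratio of 0.869 (0.637 to 1.19). The weakly accessible Mrpl14 was at 0.910, Mrps36 at 0.922 (0.810 to 1.05) with 119 in lactate and 129.6 in vehicle, Mrps10 at 0.930 (0.763 to 1.14), Mrpl44 at 0.953 (0.760 to 1.20) and Mrpl46 at 0.991 (0.824 to 1.19). Mrps35, Mrps36 and Mrpl44 had their highest value in vehicle. Intervals lay wholly below the median gene for Mrpl14, Mrpl17, Mrps2, Mrps10, Mrps31, Mrps35 and Mrps36, beside 12.5% of all genes.

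**Figure D4:**
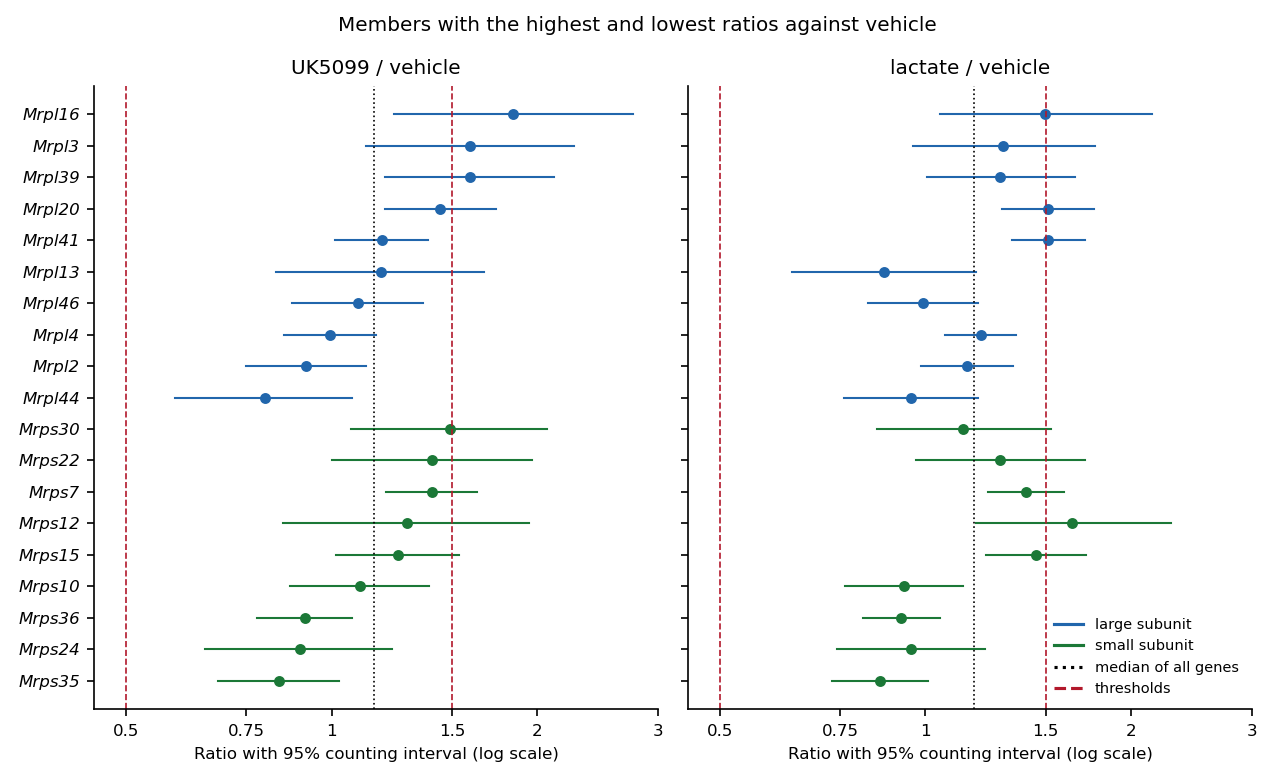
Ratio to vehicle (x axis, log scale) in UK5099 (left) and lactate (right) for the members at a threshold or among the 3 highest and 3 lowest of their subunit against vehicle at a mean height of at least 36.2, with 95% counting intervals. Mrpl16 is at 1.84 in UK5099 and 1.49 in lactate, and Mrps35 is at 0.838 and 0.858.

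UK5099 against lactate sets the treated libraries against each other. The median ratio was 1.01 for the large subunit and 0.978 for the small subunit, against 0.983 for all genes. Ratios above 1 were found for 24 of 46 large and 10 of 29 small subunit genes, beside 45.9% of all genes. No member reached 1.5, beside 3.71% of all genes, or 0.5, beside 1.43%. Mrpl13 was highest at 1.36 (0.957 to 1.92), followed by Mrps30 at 1.31 (0.961 to 1.78), Mrpl11 at 1.27 (0.994 to 1.63) and Mrpl39 at 1.24 (0.955 to 1.60). Mrps10 was at 1.18 and Mrps9 at 1.11. Mrpl21 was lowest, with 67.0 in UK5099, 94.7 in lactate and 66.7 in vehicle, a ratio of 0.707 (0.528 to 0.937) of UK5099 to lactate. In Mrpl21 the lactate library alone stood apart, at a start region shared with Ighmbp2, whose gene start is 37 bp from that of Mrpl21 and whose values are the same. Mrpl41 was at 0.783 (0.680 to 0.900), Mrps12 at 0.787 (0.541 to 1.13), Mrpl2 at 0.799 (0.658 to 0.965), Mrps18a at 0.819 (0.565 to 1.17) and Mrps17 at 0.848 (0.687 to 1.04). Intervals lay wholly above the median gene for Mrpl11, Mrpl17, Mrpl49 and Mrpl51, beside 14.1% of all genes, and wholly below it for Mrpl2, Mrpl4, Mrpl21 and Mrpl41, beside 13.5%.

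Taking the region at the gene start on its own was possible for 35 members, namely the 25 with a single start region and 10 for which the other regions could be subtracted because another gene lists them. The median ratio of the start region of UK5099 to vehicle was 1.21 over 20 large and 1.09 over 15 small subunit genes, against 1.16 for all genes with a single start region. For lactate to vehicle it was 1.23 and 1.16, against 1.18. In Mrps15, whose bacterial counterpart binds ribosomal RNA early in assembly, the start region was at 86.0 in UK5099, 115 in lactate and 73.6 in vehicle. It stood out in lactate, at 1.56 (1.26 to 1.95) of vehicle, against 1.45 over the whole gene. In Mrps35 the start region was at 60.0 in UK5099, 58.4 in lactate and 60.3 in vehicle, a ratio of 0.994 (0.712 to 1.38) of UK5099 to vehicle and 0.968 (0.740 to 1.27) of lactate to vehicle. The other regions of Mrps35 averaged 42.5 in UK5099, 45 in lactate and 56.3 in vehicle. The counting interval of the start region includes the ratio of the whole gene, 0.838. Mrps36 was alike, with 135 in UK5099, 137 in lactate and 129 in vehicle at its start and 102, 102 and 129.9 in its other region. The peak in that other region was 101 to 133 bp from a Cdk7 start. The start region of Mrpl51 was at 180 in UK5099, 132 in lactate and 144 in vehicle, so that lactate was the lowest there, while its other region was at 60.0, 63.6 and 47.7.

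**Figure D5:**
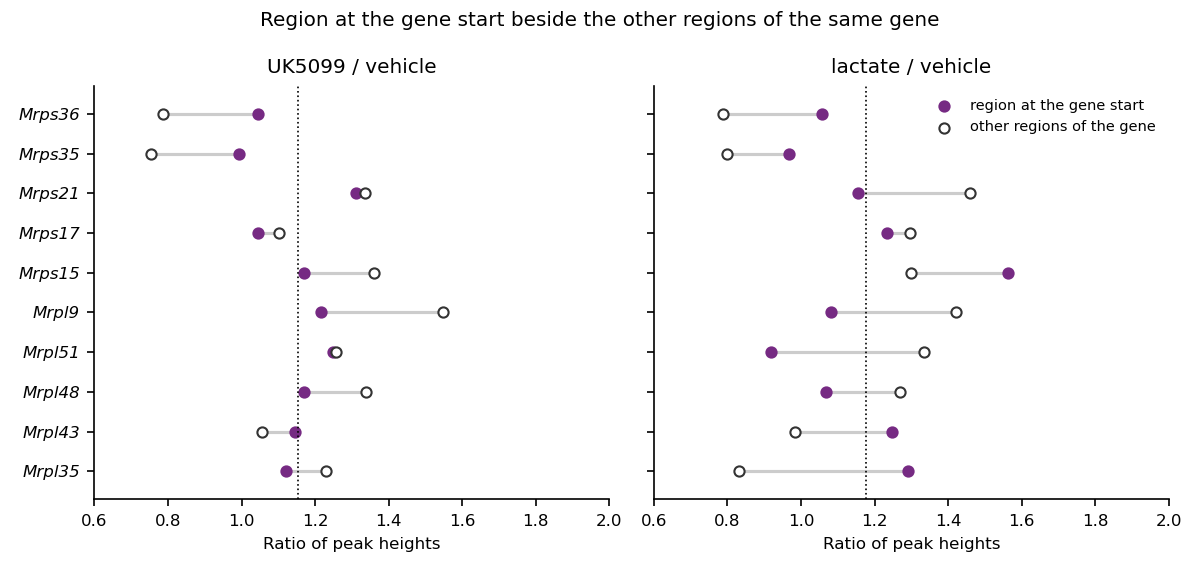
Ratio of peak heights to vehicle (x axis) in UK5099 (left) and lactate (right) for the region at the gene start (filled) and the mean of the other regions (open) of the 10 members with several regions in which both could be separated. In Mrps35 and Mrps36 the open points are at 0.755 to 0.799, and the filled points are between 0.968 and 1.06.

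The members were also grouped by properties that do not use their ratios. Large subunit genes with a bacterial counterpart had a median ratio of UK5099 to vehicle of 1.25, and those found only in mitochondria had 1.17. In the small subunit these medians were 1.16 and 1.11. For lactate to vehicle they were 1.20 and 1.19 in the large subunit and 1.19 and 1.11 in the small subunit. The 26 head-to-head members had a median of 1.19 in UK5099 and 1.14 in lactate, against 1.16 and 1.19 for the other 49. The 12 members with an NRF1 match had a median of 1.28 in UK5099 and 1.16 in lactate, against 1.18 and 1.19 for the 54 without one. For ETS the medians with and without a match were 1.15 and 1.18 in UK5099 and 1.12 and 1.19 in lactate, and for SP1 they were 1.17 and 1.19 in UK5099 and 1.15 and 1.22 in lactate. For YY1 they were 1.09 and 1.21 in UK5099 and 1.14 and 1.19 in lactate, and for CRE, with 2 members, 1.54 and 1.18 in UK5099 and 1.30 and 1.18 in lactate. Medians with a match thus lay above those without one for NRF1 and CRE and below for YY1, ETS and SP1 in UK5099, and the groups are small. With the NRF1 match were both Mrpl39, at 1.59 in UK5099, and Mrpl44, at 0.799.

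Other genes of mitochondrial translation were looked up for comparison. The mitochondrial ribosome also holds proteins whose genes do not carry an Mrp symbol, and 6 of these were in the table. Their median ratio was 1.30 in UK5099 and 1.15 in lactate, with Aurkaip1 at 1.54 the only one to reach 1.5 in UK5099 and none in lactate. Dap3, a GTP-binding protein of the small subunit, was at 1.41 in UK5099 and 1.14 in lactate, and Gadd45gip1, of the large subunit, at 1.08 and 1.30. The medians were 1.16 in UK5099 and 1.07 in lactate for 10 translation factors, 1.17 and 1.21 for 17 mitochondrial aminoacyl-tRNA synthetases, and 1.01 and 1.12 for 19 ribosome assembly factors. Among these, Rnmtl1 reached 1.5 in UK5099, Mterfd2 and Sars2 (with the values of Mrps12) reached it in lactate, and none was at 0.5 or less against vehicle. The 82 cytosolic ribosomal protein genes had medians of 1.18 and 1.16, against 1.15 and 1.18 for all genes, with 6 at 1.5 or more in UK5099 and 4 in lactate, beside 9.05% and 6.07% of all genes. The 89 genes of the respiratory chain and ATP synthase, a symbol-based list that takes in some assembly factors, had medians of 1.14 and 1.17, with 4 and 2 at 1.5 or more. None of these lists had a gene at 0.5 or less of vehicle.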

How the data were processed

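Per the study's methods, cryopreserved cells were tagmented by a sequencing company, and read pairs were aligned to mm10 with BWA, freed of duplicates, extended and stacked in small bins. Peaks were called per library with MACS, without a control (the methods and the submitters' processing notes name different versions), and merged into regions that were assigned to genes. Peaks of a library not analysed here also entered the merging. A shift of reads for the transposase offset was not given in the sources used here. As a signal, the authors deposited the average peak height per gene and library, beside a count of merged regions, a flag for a called peak and text lists of peaks with distances to the gene start.

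Ratios of heights were taken without a pseudocount, over 18889 genes for UK5099 (1 gene was at 0) and 18890 for lactate against vehicle. Heights multiplied by the number of regions fell on multiples of a fixed step (1 in UK5099, 0.471 in lactate, 0.575 in vehicle) within 0.05, for at least 99.99% of genes, and give stacked reads, which are not separate fragments. Exact conditional (Clopper-Pearson) 95% intervals cover counting error only. Members and lists were chosen with earlier results of these data known. Members were named by thresholds, by the 3 highest and 3 lowest ratios per subunit and comparison at a mean height of at least 36.2, the lower quartile of all genes, and by the highest and lowest heights, most regions or shared values. Mrpl34, Mrpl38, Mrps2 and others outside this rule are named for their intervals, motifs or regions, after their values were seen. Positions of peaks used GENCODE M21. Alternatives were 2 pseudocounts (5.63 and 56.3), a filter at the lower quartile, 2 scalings, subsets of members, other thresholds and the geometric mean. The computation was tested on simulated data. Python 3.11.15, pandas 2.3.3, numpy 2.4.6 and scipy 1.17.1 were used.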

Additional observations from a re-analysis of the deposited data

How the results depend on the processing

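All 72 alternative medians stayed inside the median 95% counting interval of single members. That limit is wide for a median over 46 or 29 genes, so staying inside it says little. All 72 alternative counts at the lower threshold stayed at 0. The medians of UK5099 to vehicle ran from 1.03 to 1.25 in the large and from 0.981 to 1.17 in the small subunit, and those of lactate to vehicle from 1.02 to 1.25 and from 0.989 to 1.18. The lowest of each came from scaling by the median ratio or to the same total, which moved both lactate medians and the small subunit median in UK5099 by more than 1 SD of the members' log2 ratios and left both small subunit medians against vehicle under 1.

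Of the counts at 1.5 or more, 19 of 72 changed by over 1.5 times. For the large subunit in UK5099 the count was 0 at a threshold of 2 and with a pseudocount of 56.3, and 1 under either scaling, beside 2 (against 3, within that limit) for start regions and without members of shared values. For the large subunit in lactate it was 0 at a threshold of 2, with either pseudocount, under either scaling, and for members with a single region, a single start region or the start region alone, and 1 without members of shared values. For the small subunit in lactate it was 0 at a threshold of 2, with a pseudocount of 56.3, under either scaling, for members with a single start region and without members of shared values. The share of all genes at these settings is not given here, so these lower counts cannot be read as particular to the members. The settings on start regions and on the subunit in which the protein is found were chosen after seeing the data. No symbol was that of a pseudogene, so leaving pseudogenes out changed nothing. No paired analysis was possible because each group held 1 library, and no library could be left out. Depth limits single ratios: an interval on 51 stacked reads in vehicle, as in Mrpl16, spanned 1.23 to 2.76.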
